A study of Mus musculus with 6 samples.

Results

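Transcripts of 10 cadherin genes were followed in mouse embryo fibroblasts: Cdh1, Cdh2, Cdh3, Cdh4, Cdh5, Cdh6, Cdh10, Cdh11, Cdh13 and Cdh15. They were chosen by gene symbol from the 49315 Ensembl genes in the files, and all 10 were found. The tested lines, SG1, SG2 and SG3, carried the genotype p53-/-;MDMXSG/SG, a knock-in that replaces residues of MDMX (encoded by Mdm4) by the substitutions W201S and W202G. The lines WT3, WT9 and WT11 were p53-/-;MDMXWT/WT. Lines of both genotypes therefore lacked p53, and per the labels all were untreated C57BL/6 cells at passage 4. Each line was derived from 1 embryo, so n counts embryos (3 per genotype). The study asked which transcripts respond when MDMX can no longer bind the kinase CK1-alpha.

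Classical cadherins are calcium-dependent adhesion receptors that bind like molecules on the neighbouring cell. Their cytoplasmic tail binds p120-catenin and beta-catenin, and alpha-catenin joins that complex to actin. Type I members include Cdh1 (E-cadherin of epithelia), Cdh2 (N-cadherin of mesenchyme, nerve and heart), Cdh3 (P-cadherin) and Cdh4 (R-cadherin), with Cdh15 (M-cadherin of muscle) as a more distant relative. Type II members include Cdh5 (VE-cadherin of endothelium), Cdh6 (K-cadherin), Cdh10 and Cdh11 (OB-cadherin of osteoblasts and mesenchyme). Cdh13 (T-cadherin) has the cadherin repeats but a lipid anchor in place of the tail, so in the strict sense it is not classical. CK1-alpha also phosphorylates beta-catenin, which is both a junction protein and the effector of Wnt signalling.

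Libraries held between 49317925 and 65457242 counts. Xist, expressed from the silent X chromosome of female cells, reached 399 CPM in SG1 and, among WT lines, 343 CPM in WT9 (CPM are read counts scaled for library size) and below 1 CPM in the other 4 lines. Mdm4 itself was at 60.04 ± 3.36 CPM in SG lines and 60.4 ± 2.32 CPM in WT lines (SD, n = 3 each), and gene-level counts cannot show the altered codons. All 10 fibroblast markers were tested, with the collagen gene Col1a1 at 6099 ± 772 CPM in SG lines and 5620.5 ± 86.7 CPM in WT lines. Thy1, a surface glycoprotein of fibroblasts, was the 1 marker past the threshold, at 280.0 ± 25.5 CPM in SG lines and 460.2 ± 19.0 CPM in WT lines (log2 fold change -0.72, SE 0.07, edgeR adjusted p = 0.008, and 0.0629 without SG2). It was 1 of 10, beside 1.9% of all tested genes, and DESeq2 called 4 of the 10, beside 5.97% of all genes to which it gave an adjusted p. Log2 fold changes were above 0 for 2 markers and below 0 for 8. The genotypes did not overlap for 4 of the 10, all lower in SG lines, beside 11.2% of all tested genes lower without overlap. Besides Thy1, the matrix gene Postn (-0.68, edgeR adjusted p = 0.0704), the growth factor receptor gene Pdgfrb (-0.35, adjusted p = 0.174) and Vim (-0.17, adjusted p = 0.0701) lay lower in every SG line than in any WT line, short of the edgeR threshold.

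Cdh11, Cdh2 and Cdh3 made up nearly all of the summed level of these 10 genes, and their order was the same in every line. Levels of different genes are compared as CPM per kilobase of exon. Cdh11 stood at 47.4 ± 1.72 CPM per kilobase in SG and 48.2 ± 4.42 in WT lines, Cdh2 at 31.3 ± 4.53 in SG and 36.3 ± 1.15 in WT, and Cdh3 at 23.3 ± 1.27 in SG and 21.7 ± 1.88 in WT. Together these genes held 93.3% ± 0.84 of the summed per-kilobase level of all 10 in SG and 93.7% ± 0.698 in WT lines. Cdh10 followed at 4.52 ± 1.23 CPM per kilobase in SG and 3.44 ± 0.957 in WT lines. The remaining 6 came in the order Cdh4, Cdh13, Cdh6, Cdh15, Cdh5 and Cdh1, and this order too held within each of the 6 lines. Between Cdh4 and Cdh13, between Cdh13 and Cdh6, and between Cdh5 and Cdh1 the ranges over the 6 lines overlapped, so those neighbours do not stand apart when lines are pooled. The other neighbours did not overlap.

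**Figure D1:**
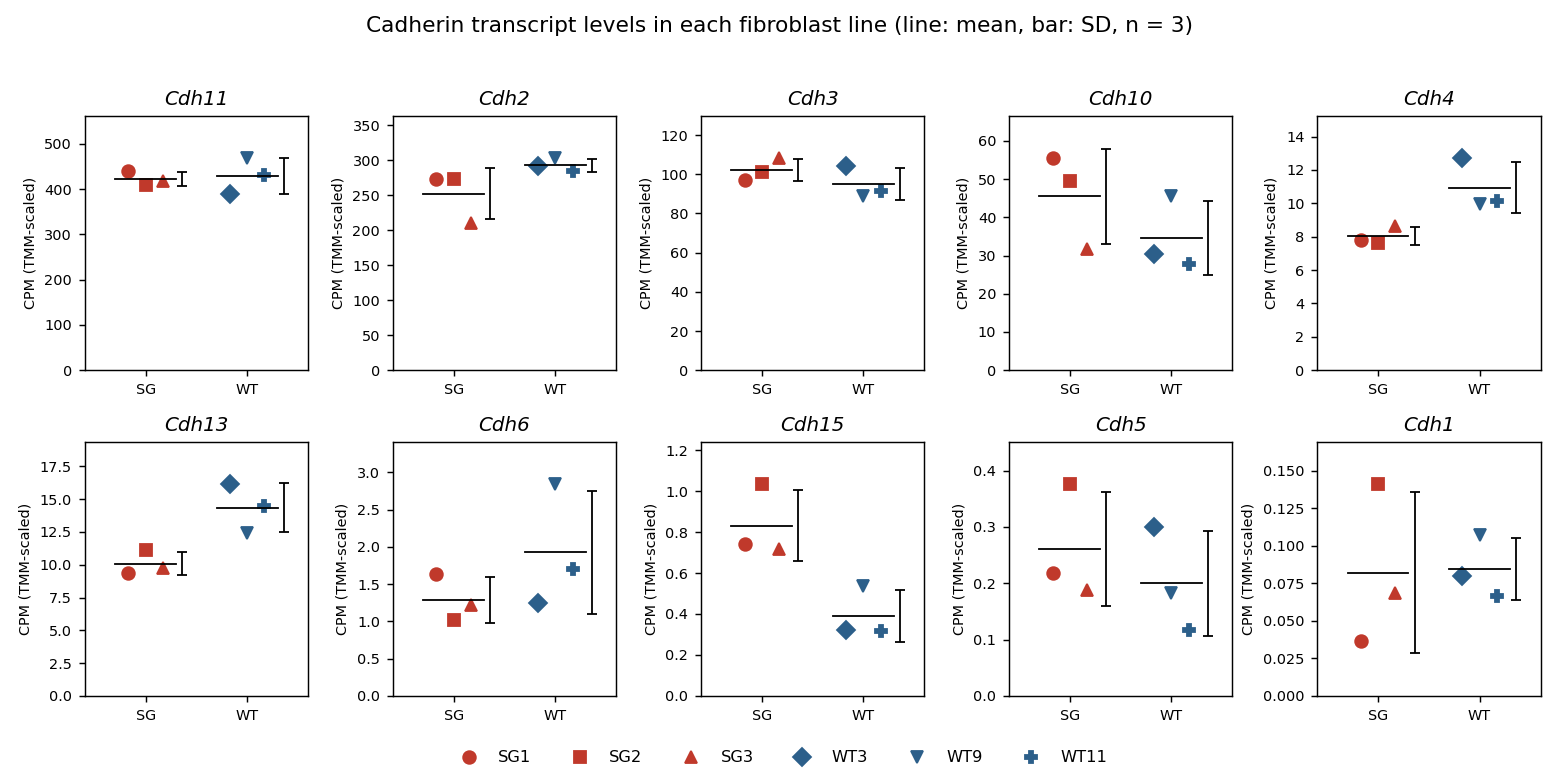
CPM (scaled by TMM, the trimmed mean of M-values) of each of the 10 cadherin genes, with SG lines left and WT lines right; each symbol is a line, the horizontal line is the mean and the bar the SD (n = 3). All WT lines lie above all SG lines for Cdh2, Cdh4 and Cdh13, all SG lines lie above all WT lines for Cdh15, and the genotypes overlap for the other 6 genes.

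Of the 10 genes, 9 had reads enough for a test, and 0 passed the threshold (adjusted p below 0.05, edgeR quasi-likelihood test over all 16068 genes tested, of which 1.9% passed). Cdh1 was the gene left untested. At an unadjusted p below 0.05 there were 3 of the 9 (Cdh13, Cdh4 and Cdh15), where 15.5% of all tested genes passed that mark. The genotypes did not overlap in CPM for 4 of the 9, beside 21.2% of all tested genes. Of these 1 was higher in SG lines, as were 10% of tested genes, and 3 were lower, as were 11.2%. The log2 fold changes, SG minus WT, were above 0 for 4 and below 0 for 5, with a median of -0.023, beside 0.0017 over all tested genes. DESeq2 called 2 of the 9, Cdh13 and Cdh4, where it called 5.97% of the genes to which it gave an adjusted p. The same pair passed in edgeR with no count filter, a fit in which 3.33% of genes passed. In bulk RNA, fewer cells that express a gene and less of its RNA per cell cannot be told apart.

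**Figure D2:**
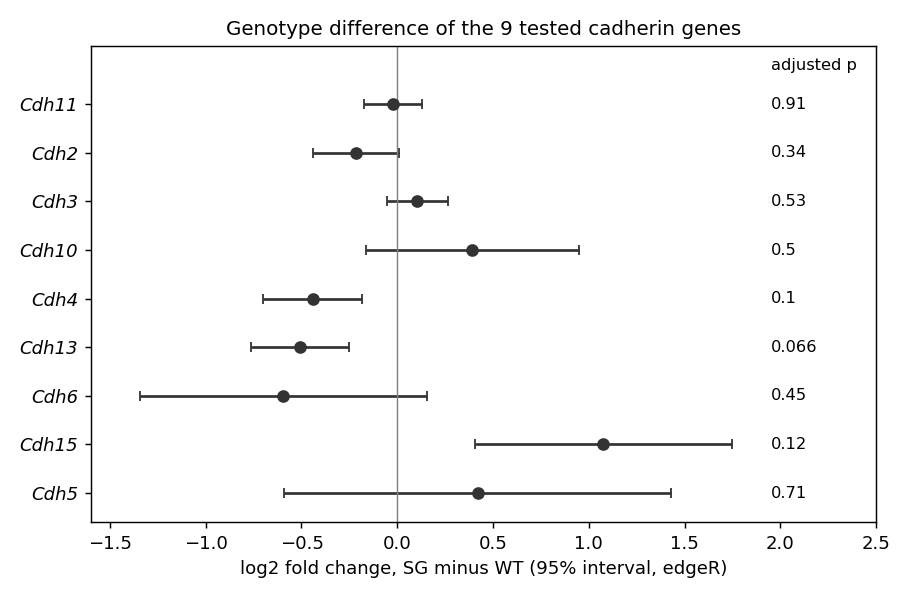
Log2 fold change (SG minus WT, horizontal axis) of the 9 tested cadherin genes with 95% intervals from the edgeR fit, ordered by per-kilobase level, and the adjusted p at the right. The intervals of Cdh4, Cdh13 and Cdh15 leave out 0, but these intervals are per gene and no gene passed after adjustment over all genes, the lowest adjusted p being 0.066.

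Cdh2, the cadherin most often taken to mark mesenchymal cells, is encoded on chromosome 18 (ENSMUSG00000024304, 16588877 to 16809246, minus strand). It was counted at 273, 274 and 210.1 CPM in SG1, SG2 and SG3, against 292, 303 and 284 CPM in WT3, WT9 and WT11. SG3 was the low line, and all SG lines lay below all WT lines. The log2 fold change was -0.22 with a 95% interval of -0.44 to 0.0081, and the adjusted p was 0.342 (edgeR). The fitted ratio of SG to WT was thus 0.861, and its interval ran between 0.738 and 1.01. Without SG3 the log2 fold change was -0.10 (adjusted p = 0.31), so 1 line carries much of its size.

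Cdh3, which joins cells of basal epithelium and hair follicles, lies on chromosome 8 (ENSMUSG00000061048, 106510891 to 106557297). It had 97.0, 101 and 108 CPM in SG1, SG2 and SG3, against 104, 89.0 and 91.4 CPM in WT3, WT9 and WT11. Here SG3 was the highest line of all, and WT3 lay within the range of the SG lines. The log2 fold change was 0.11 (SE 0.07, edgeR adjusted p = 0.529), and 0.061 without WT9 or 0.18 without WT3. Its neighbour Cdh1 (ENSMUSG00000000303, chromosome 8, 106603351 to 106670246), the adhesion receptor that defines epithelia, was close to absent, with 2, 9 and 4 counts in SG1, SG2 and SG3, against 4, 7 and 4 counts in WT3, WT9 and WT11. These counts are too few for a test, and no line reached the level of the count filter.

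Since both genes are known from epithelia, the 10 epithelial markers stand beside them. Of these 9 were tested and 0 passed (3 at an unadjusted p below 0.05 and 1 with DESeq2, beside 15.5% and 5.97% of all genes). Their summed level was 56.2 to 110.0 CPM in SG and 71.6 to 99.2 CPM in WT lines. Among the tested markers, 6 log2 fold changes were above 0 and 3 below 0. Most of the sum came from Krt19, Krt18 and Cldn4, each with overlap. Krt19 was at 48.5 ± 11.9 CPM in SG lines and 65.0 ± 6.78 CPM in WT lines (log2 fold change -0.42, adjusted p = 0.288). Krt18 (log2 fold change 0.64, adjusted p = 0.307) and Cldn4 (1.16, adjusted p = 0.417) pointed the other way. The marker with the smallest p was the basal keratin gene Krt14 (0.864 ± 0.603 CPM in SG lines and 0.173 ± 0.0881 CPM in WT lines, adjusted p = 0.122). Krt14 passed the count filter through the SG lines, and among WT lines only WT11 reached its level. Some difference was therefore built into the testing of Krt14. Krt5, the keratin that pairs with it, was too sparse over the 6 lines for a test, but had 162 counts in SG1, 107 in SG2 and 0 in SG3, and 0 in each WT line. A count of 0 allows a level of up to 0.0514 CPM in SG3 and 0.0459 to 0.06 CPM in WT lines (3 counts, counting error only). Cdh3 was highest in SG3, a line without Krt5 counts, and the part of epithelial cells in its level was not tested. Epcam, an adhesion molecule of epithelia, was at 0.336 ± 0.0483 CPM in SG lines and 0.290 ± 0.0099 CPM in WT lines.

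Cdh4, named R-cadherin from the retina, lies on chromosome 2 (ENSMUSG00000000305, 179442431 to 179899373). It had 7.83, 7.63 and 8.66 CPM in SG1, SG2 and SG3, against 12.7, 9.98 and 10.1 CPM in WT3, WT9 and WT11. The SG lines lay close together and below every WT line, of which WT3 was the highest. The log2 fold change was -0.44 (SE 0.11, 95% interval -0.70 to -0.18, edgeR adjusted p = 0.1003). The call made by DESeq2 had an adjusted p of 0.0106, and that without a count filter 0.0249.

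Cdh15 (ENSMUSG00000031962, chromosome 8, 122847966 to 122867397), which holds muscle satellite cells to their fibre, had the largest fold of the 9 at a low level. It had 41, 66 and 42 reads in SG1, SG2 and SG3, or 0.743, 1.03 and 0.719 CPM, against 16, 35 and 19 counts in WT3, WT9 and WT11, or 0.32, 0.535 and 0.316 CPM. Every SG line was above every WT line, with SG2 highest. The fitted level in SG was 2.11 times that in WT (log2 fold change 1.08, SE 0.29), and its 95% interval ran from 1.33 to 3.36 times, with an adjusted p of 0.117 (edgeR).

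Of 13 skeletal muscle markers, 5 were tested and 0 passed in edgeR (2 at an unadjusted p below 0.05 and 1 with DESeq2, beside 15.5% and 5.97% of all genes). Their summed level was 19.4 to 30.8 CPM in SG and 13.1 to 23.3 CPM in WT lines. The muscle stem cell factor Pax7 had 0 counts in every line, which allows up to 0.047 to 0.0544 CPM in SG and 0.0459 to 0.06 CPM in WT lines. The myogenic factor Myod1 had 0, 1 and 0 counts in SG1, SG2 and SG3, against 1, 0 and 0 counts in WT3, WT9 and WT11, and Myog and Myf6 had at most 3 counts in a line. Myf5, also a myogenic factor, had 0, 4 and 0 counts in SG1, SG2 and SG3, against 8, 8 and 11 counts in WT3, WT9 and WT11, too few for a test and the other way round from Cdh15. Des, the muscle intermediate filament, carried most of the list's sum, at 20.4 ± 4.37 CPM in SG lines and 11.2 ± 3.94 CPM in WT lines (adjusted p = 0.146). Pax3, a factor of muscle and neural crest progenitors, had the smallest p of the list and pointed the other way (1.13 ± 0.389 CPM in SG lines and 3.25 ± 0.818 CPM in WT lines, log2 fold change -1.53, SE 0.30, adjusted p = 0.0502). The part of muscle cells in the Cdh15 level was not tested.

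Among the type II genes, Cdh11 (ENSMUSG00000031673, chromosome 8, 102632095 to 102785642, minus strand) had the narrowest spread between lines. It was at 439, 410 and 417 CPM in SG1, SG2 and SG3, against 389, 468 and 430.3 CPM in WT3, WT9 and WT11. The SG lines fell inside the range of the WT lines. The log2 fold change was -0.02 with a 95% interval of -0.18 to 0.13 (edgeR adjusted p = 0.907), so the fitted ratio of SG to WT lay between 0.885 and 1.09. Its sign turned without WT9. The level of Cdh11 per kilobase was 1.46, 1.36 and 1.80 times that of Cdh2 in SG1, SG2 and SG3, against 1.21, 1.40 and 1.37 times in WT3, WT9 and WT11. SG3 had the highest of these ratios, and the genotypes overlapped.

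Cdh10 and Cdh6 both lie on chromosome 15 and varied most between lines among the genes above 1 CPM. Cdh10 (ENSMUSG00000022321, 18818947 to 19014236), best known from brain, had 55.4, 49.4 and 31.6 CPM in SG1, SG2 and SG3, against 30.4, 45.6 and 27.7 CPM in WT3, WT9 and WT11. SG1, SG2 and WT9 were high and SG3, WT3 and WT11 low, so the levels split within each genotype. The log2 fold change was 0.39 (SE 0.24, 95% interval -0.16 to 0.95, edgeR adjusted p = 0.501). Xist was high in SG1 and WT9 and below 1 CPM in the other 4 lines, and the part of what sets those lines apart in the Cdh10 level was not tested. With single lines left out it ran between 0.23 (without SG1) and 0.64 (without WT9), and it was 0.26 without WT11 and 0.60 without SG3. Without SG1 and WT9 it was 0.48 (adjusted p = 0.290).

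Cdh6 (ENSMUSG00000039385, 13034200 to 13173639, minus strand), a cadherin of kidney tubule and neural crest, had 1.63, 1.02 and 1.22 CPM in SG1, SG2 and SG3, against 1.24, 2.84 and 1.70 CPM in WT3, WT9 and WT11. WT9 stood highest, and WT3 lay among the SG lines. The log2 fold change of -0.59 (SE 0.32, edgeR adjusted p = 0.445) was -0.20 without WT9. The line that was highest for Cdh6 was thus among those high for Cdh10, while SG2, high for Cdh10, was the lowest for Cdh6.

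Snail, Zeb and Twist factors, whose transcripts are described below, read some forms of the E-box CANNTG (N is any base, and the motif reads alike on both strands). E-boxes were therefore looked for just before RefSeq start sites. Most members were not in the promoter set used here, so the stretches of Cdh10 and Cdh6 are shown. Each is the 250 bases upstream of the RefSeq start (GRCm38.p6), written 5′ to 3′ on the strand of the gene with E-boxes in capitals. Neither window overlaps a GENCODE exon of its gene. That of Cdh10 lies inside the span given above for the gene (18818947 to 19014236), downstream of its first annotated base. It may therefore hold intron sequence of the annotated gene.
Cdh10, chr15:18820079-18820328, plus strand: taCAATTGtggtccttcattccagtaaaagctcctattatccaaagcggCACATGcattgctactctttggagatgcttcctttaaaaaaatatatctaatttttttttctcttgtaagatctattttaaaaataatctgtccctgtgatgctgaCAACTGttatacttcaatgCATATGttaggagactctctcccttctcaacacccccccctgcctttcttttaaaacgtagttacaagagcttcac
Cdh6, chr15:13173676-13173925, minus strand: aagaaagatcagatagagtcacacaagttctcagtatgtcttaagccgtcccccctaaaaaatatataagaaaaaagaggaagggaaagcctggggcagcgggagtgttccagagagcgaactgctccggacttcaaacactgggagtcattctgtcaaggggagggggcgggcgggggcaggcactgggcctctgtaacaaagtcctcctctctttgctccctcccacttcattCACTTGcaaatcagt
Cdh10 held 4 E-boxes and Cdh6 held 1, and 66.2% of 32851 RefSeq windows of the same length held at least 1. The narrower form CACCTG, or CAGGTG on the other strand, was in neither window and in 17.2% of all windows. Capitals mark every CANNTG, including forms that the factors named above may not read. The G and C content was 36.8% for Cdh10 and 51.2% for Cdh6. A match of letters is not a bound site, and no binding was measured.

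Cdh5 (ENSMUSG00000031871, chromosome 8, 104101625 to 104144511), the adhesion receptor of endothelial junctions, had 12, 24 and 11 counts in SG1, SG2 and SG3, against 15, 12 and 7 counts in WT3, WT9 and WT11. The genotypes overlapped, and the log2 fold change of 0.42 had a 95% interval of -0.59 to 1.43 (edgeR adjusted p = 0.706), too wide to tell a change in either direction at this depth. With single lines left out it ran between 0.047 (without SG2) and 0.79 (without WT3). Of 10 endothelial markers, 7 were tested and 0 passed in edgeR (2 at an unadjusted p below 0.05 and 1 with DESeq2, beside 15.5% and 5.97% of all genes). Their summed level was 111 to 142 CPM in SG and 126 to 152 CPM in WT lines. Most of that sum came from the receptor genes Flt1 (65.1 ± 19.5 CPM in SG lines and 90.5 ± 10.0 CPM in WT lines) and Kdr (59.4 ± 10.4 CPM in SG lines and 45.3 ± 6.91 CPM in WT lines), and Kdr had the smallest p of the list (adjusted p = 0.241). Of the other markers, Erg, a transcription factor gene, was the highest (2.11 ± 0.690 CPM in SG lines and 3.07 ± 0.937 CPM in WT lines). Emcn, Tek, Esam and Vwf averaged between 0.211 and 1.06 CPM in SG lines and between 0.214 and 0.758 CPM in WT lines. Pecam1, Tie1 and Cldn5 were too sparse for a test, and Tie1 and Cldn5 had 0 to 2 counts in each line. The part of endothelial cells in the Cdh5 level was not tested.

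Cdh13, the lipid-anchored cadherin that binds adiponectin, came nearest to the threshold. It spans a long stretch of chromosome 8 (ENSMUSG00000031841, 118283733 to 119324921). It had 9.40, 11.1 and 9.77 CPM in SG1, SG2 and SG3, against 16.1, 12.4 and 14.5 CPM in WT3, WT9 and WT11. All SG lines lay below all WT lines, with WT9 the closest to them. The level in SG was 0.704 times that in WT (log2 fold change -0.51, SE 0.11, 95% interval -0.76 to -0.25, edgeR adjusted p = 0.066). Cdh13 passed in edgeR without WT9 (adjusted p = 0.0289, in a fit that called 2.82% of genes) and without SG1 and WT9 (adjusted p = 0.0388, 4.36% called). DESeq2 gave it an adjusted p of 0.00104.

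The summed level of all 10 genes was 113.6, 111 and 104 CPM per kilobase in SG1, SG2 and SG3, against 111, 119 and 111 in WT3, WT9 and WT11. The means, 109 ± 5.22 in SG and 113 ± 4.66 in WT lines (n = 3 each), differed by less than the spread between lines (difference -3.95, exact permutation test, 2-sided, p = 0.6). The difference was -1.04 without SG3 and -1.26 without WT9. Cdh2 took 29.8%, 30.6% and 25.2% of the sum in SG1, SG2 and SG3, against 32.7%, 31.6% and 31.8% in WT3, WT9 and WT11. Cdh13 took 0.737%, 0.891% and 0.841% in SG1, SG2 and SG3, against 1.30%, 0.933% and 1.17% in WT3, WT9 and WT11. In both cases every SG line lay below every WT line, and the exact permutation p was 0.1 (2-sided, adjusted p = 0.15 over 3 shares), the smallest that 3 lines against 3 allow. The difference in the share of Cdh2, -3.55 percentage points, was -1.87 without SG3. The share of Cdh11 was 43.4% ± 1.89 in SG and 42.5% ± 2.59 in WT lines, with overlap (exact permutation p = 0.7).

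**Figure D3:**
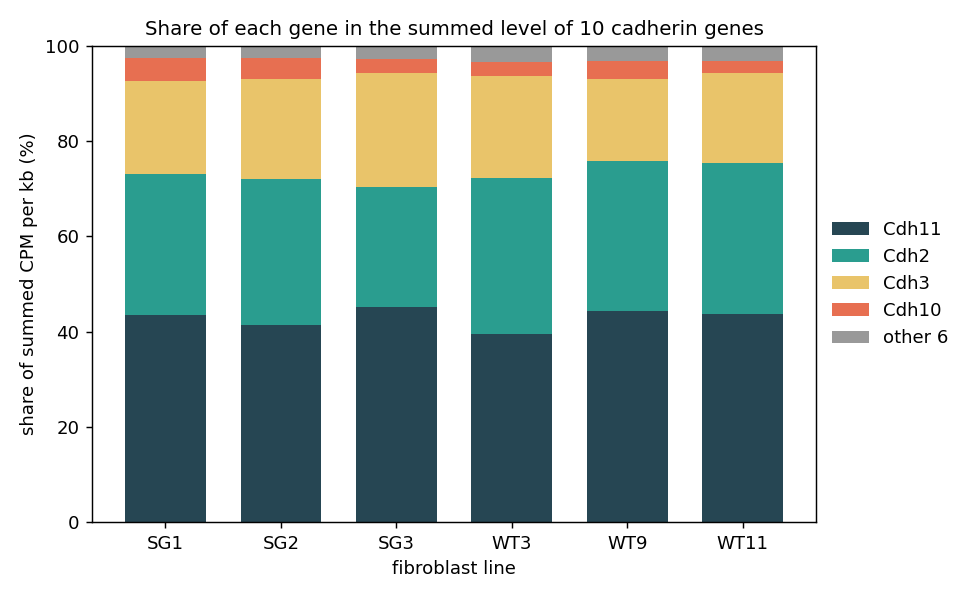
Share of each gene (percent, stacked to 100) in the summed CPM per kilobase of the 10 cadherin genes, 1 bar per fibroblast line, SG lines at the left. Cdh11 is the largest part of every bar, between 39.5% in WT3 and 45.3% in SG3, and Cdh2 is smallest in SG3, at 25.2%.

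Transcripts of the proteins that join cadherins at the junction came next. Of 18 adherens junction genes, 16 were tested and 0 passed the edgeR threshold, with log2 fold changes above 0 for 12 and below 0 for 4 (median 0.083), and 5 had an unadjusted p below 0.05. DESeq2 called 4 of them, Nectin3, Ctnna1, Ctnna2 and Ctnnd2. Over all genes those shares were 15.5% and 5.97%. The genotypes did not overlap for 5 of the 16 (Nectin3, Ctnnb1, Ctnna1, Ctnna2 and Ctnnd2), beside 21.2% of all tested genes. Nectin3, a nectin that helps to seed adherens junctions, had the smallest p, at 101 ± 10.8 CPM in SG lines and 75.4 ± 6.48 CPM in WT lines (log2 fold change 0.43, SE 0.09, edgeR adjusted p = 0.0578). Some catenins are added here with their values known. Ctnnb1 (beta-catenin) was at 676 ± 5.22 CPM in SG lines and 687 ± 2.42 CPM in WT lines (log2 fold change -0.023, adjusted p = 0.77). Ctnna1 (alpha-catenin) was at 598 ± 27.3 CPM in SG lines and 525 ± 11.7 CPM in WT lines (log2 fold change 0.19, SE 0.04, adjusted p = 0.0701). Ctnna2, its form in neurons, was far lower and differed the other way (1.55 ± 0.113 CPM in SG lines and 3.04 ± 0.943 CPM in WT lines, adjusted p = 0.0933). Ctnnd2 was at 36.6 ± 2.16 CPM in SG lines and 28.9 ± 3.87 CPM in WT lines (log2 fold change 0.34, SE 0.09, adjusted p = 0.126). Ctnnd1 (p120-catenin) was at 70.1 ± 5.45 CPM in SG lines and 62.2 ± 5.73 CPM in WT lines, with overlap. It shares 61.2% of its exon length with Gm28635, listed at 0 counts in every line, so its own count may be uncertain.

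Factors listed here as repressors of Cdh1 were all expressed, and no action of theirs on Cdh1 was measured. Of 9, all were tested and 1 fell, where 1.1% of all tested genes fell, and 5 had an unadjusted p below 0.05, beside 15.5%. The genotypes did not overlap for 5, beside 21.2% of all tested genes. Twist2, a factor of dermal mesenchyme, fell to 34.3 ± 1.96 CPM in SG lines, against 45.8 ± 2.38 CPM in WT lines (log2 fold change -0.41, SE 0.06, edgeR adjusted p = 0.0183). This call was lost without SG2, WT3 or WT11, with adjusted p of 0.107, 0.0963 and 0.087. Its log2 fold change was -0.39, -0.37 and -0.42 in those fits. They called 3, 24 and 29 of all genes, against 306 in the main fit. DESeq2 called 4 of the 9, beside 5.97% of all genes to which it gave an adjusted p. Twist2 shares 46.5% of its exon length with the antisense gene Gm29100, which had 61 to 70 counts in SG lines and 64 to 85 in WT lines, and without a stated strand setting their reads cannot be told apart. Twist1 (62.7 ± 6.53 CPM in SG lines and 79.1 ± 3.07 CPM in WT lines, adjusted p = 0.066), Snai2 (38.8 ± 3.32 CPM in SG lines and 47.3 ± 1.85 CPM in WT lines, adjusted p = 0.0761) and Zeb1 (79.6 ± 1.92 CPM in SG lines and 87.3 ± 4.71 CPM in WT lines, adjusted p = 0.219) were lower in SG lines without overlap, short of the threshold. Foxc2 was higher in SG lines without overlap (42.1 ± 4.03 CPM in SG lines and 33.5 ± 3.68 CPM in WT lines, adjusted p = 0.136). Snai1, Zeb2, Tcf3 and Tcf4 overlapped. Log2 fold changes were above 0 for 4 and below 0 for 5, with a median of -0.039. Of 9 factors that maintain epithelial expression, 2 were tested and 0 passed by edgeR, at an unadjusted p below 0.05 or by DESeq2, the one with the smaller p being the splicing factor gene Esrp2 (3.31 ± 0.683 CPM in SG lines and 2.99 ± 0.290 CPM in WT lines, adjusted p = 0.751). Ovol2 had 0 counts in every line, and Grhl2, an activator of Cdh1 in epithelia, had 2, 2 and 0 counts in SG1, SG2 and SG3, against 6, 0 and 0 counts in WT3, WT9 and WT11.

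Of 9 further type II genes, 3 were tested and 0 passed in edgeR (2 at an unadjusted p below 0.05 and 0 with DESeq2, beside 15.5% and 5.97% of all genes). Cdh19, a cadherin of Schwann cell precursors, had the smallest p, with 13, 14 and 15 counts in SG1, SG2 and SG3, against 2, 1 and 5 counts in WT3, WT9 and WT11 (log2 fold change 2.32, SE 0.49, adjusted p = 0.06). It passed the count filter through the SG lines, so some difference was built into its being tested. Of 9 desmosomal cadherins, 2 were tested and 0 passed in edgeR (1 at an unadjusted p below 0.05 and 0 with DESeq2, beside 15.5% and 5.97% of all genes). Dsg2 had the smaller p (0.289 ± 0.0901 CPM in SG lines and 0.586 ± 0.164 CPM in WT lines, adjusted p = 0.197). Of 7 genes of the Fat and Dachsous cadherin system, which act in tissue polarity and growth control, 6 were tested and 0 passed in edgeR (3 at an unadjusted p below 0.05 and 2 with DESeq2, beside 15.5% and 5.97% of all genes). Fat1, a giant cadherin, was abundant, at 34.2 ± 1.45 CPM per kilobase in SG lines and 29.5 ± 2.49 CPM per kilobase in WT lines, a level near that of Cdh2, and its genotypes did not overlap (log2 fold change 0.21, SE 0.06, edgeR adjusted p = 0.151). Fat3 had the smallest p there (0.990 ± 0.191 CPM in SG lines and 1.90 ± 0.332 CPM in WT lines, adjusted p = 0.0724).

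Genes of cadherin maturation and cleavage include the furin-like proteases that remove the propeptide and ADAM10, which sheds the ectodomain. Of 14, 13 were tested and 0 passed in edgeR (6 at an unadjusted p below 0.05 and 3 with DESeq2, beside 15.5% and 5.97% of all genes), with 4 above and 9 below 0 (median -0.03). Mmp3, a matrix protease, had the smallest p, at 2.01 ± 0.690 CPM in SG lines and 5.43 ± 1.65 CPM in WT lines (log2 fold change -1.43, SE 0.28, edgeR adjusted p = 0.0526). Adam10 was at 193 ± 0.971 CPM in SG lines and 194 ± 2.75 CPM in WT lines (adjusted p = 0.953).

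**Figure D4:**
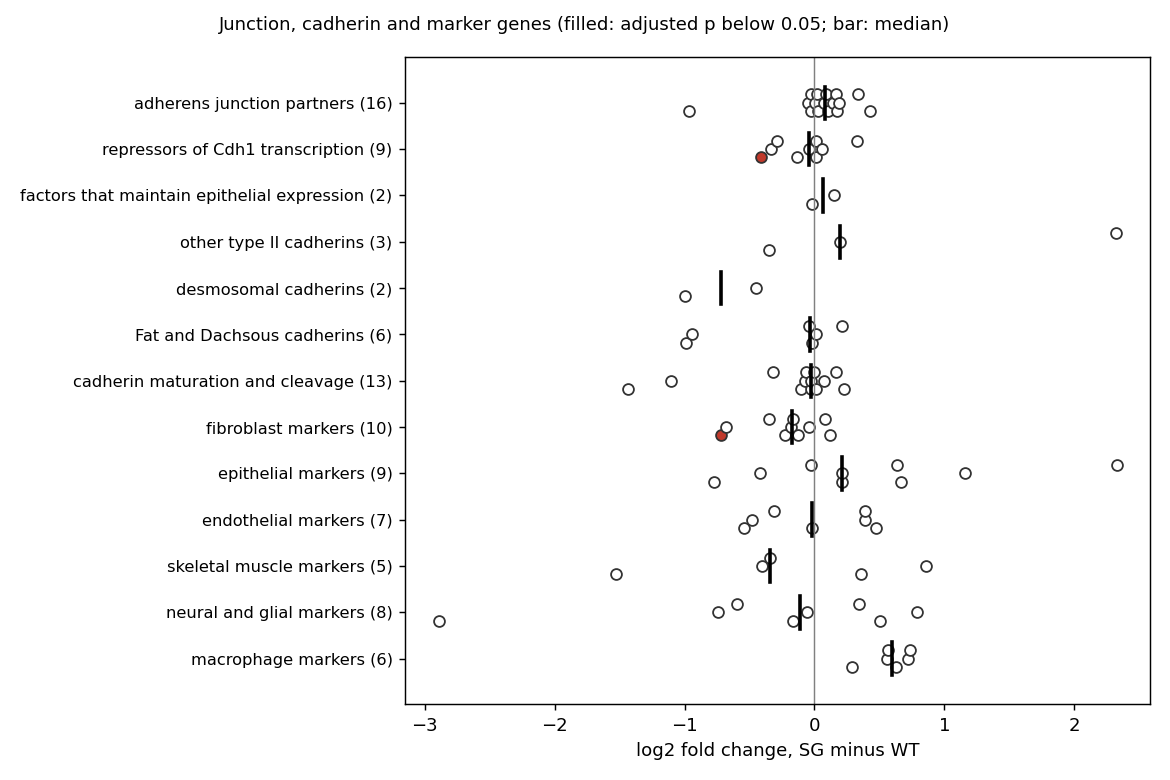
Log2 fold change (SG minus WT) of each tested gene in 13 lists of junction, cadherin and cell type marker genes, with the number tested in brackets; filled circles passed the edgeR threshold and the bar is the median of the list. The 2 filled circles are Twist2 among the repressors of Cdh1 and Thy1 among the fibroblast markers.

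Markers of nerve and macrophage were looked at because Cdh2, Cdh4 and Cdh10 are also neural genes. Of 11 neural and glial markers, 8 were tested and 0 passed in edgeR, with log2 fold changes above 0 for 3 and below 0 for 5. At an unadjusted p below 0.05 there were 5, and DESeq2 called 4, where the shares over all genes were 15.5% and 5.97%. Their summed level was 471 to 494 CPM in SG and 336 to 422 CPM in WT lines, mostly from Nes, an intermediate filament of progenitors (417 ± 13.9 CPM in SG lines and 293 ± 46.3 CPM in WT lines, adjusted p = 0.0521). Elavl4, a neuronal RNA-binding protein gene, pointed the same way (8.34 ± 1.71 CPM in SG lines and 4.84 ± 0.577 CPM in WT lines, adjusted p = 0.0609). Others pointed the opposite way without overlap, namely the stem cell factor Sox2 (0.379 ± 0.145 CPM in SG lines and 2.86 ± 1.96 CPM in WT lines, log2 fold change -2.89, adjusted p = 0.0897), Map2 (log2 fold change -0.60, adjusted p = 0.0645) and Tubb3 (log2 fold change -0.16, adjusted p = 0.257). Of 6 macrophage markers, 6 were tested and 0 passed by edgeR, at an unadjusted p below 0.05 or by DESeq2. All 6 log2 fold changes were above 0 (median 0.59), with overlap of the genotypes for each. Their sum was 25.5 to 58.3 CPM in SG lines, highest in SG3, and 11.4 to 31.2 CPM in WT lines, lowest in WT11. Cd14 had the smallest p (4.83 ± 1.91 CPM in SG lines and 3.14 ± 0.646 CPM in WT lines, adjusted p = 0.339). The part of such cells in the cadherin levels was not tested.

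Of the 10 genes, 6 lie on chromosome 8, yet their patterns over the 6 lines differed. Likeness was measured as the root mean square difference of log2 CPM after each gene's own mean was taken off. By this measure Cdh4 and Cdh13, on different chromosomes, were the closest pair among the 9, at 0.131. Each of the 9 was also compared with 11013 or 11014 genes whose log2 CPM averaged 1 or more, other cadherins at that level included. Hoxc10, a homeobox gene of the hind part of the body, was closest to Cdh13 (0.0424, beside a median of 0.29 over the genes compared), with 15.1, 16.9 and 15.2 CPM in SG1, SG2 and SG3, against 23.6, 19.2 and 23.1 CPM in WT3, WT9 and WT11. Lxn, a carboxypeptidase inhibitor gene, was closest to Cdh4 (0.0618), and Lancl3 to Cdh2 (0.0275). Elovl4, of very long chain fatty acid synthesis, was closest to Cdh10 (0.112), with 26.3, 27.5 and 19.0 CPM in SG1, SG2 and SG3, against 17.3, 24.6 and 16.4 CPM in WT3, WT9 and WT11, and it divided the lines as Cdh10 did. Anxa4 was closest to Cdh3 (0.0186), Fbrsl1 to Cdh11 (0.0336), Hecw1 to Cdh15 (0.101), Fbxo32 to Cdh6 (0.222) and Syt17 to Cdh5 (0.236). With 6 lines and so many genes some close matches arise in any case, so these are descriptions.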

How the data were processed

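Poly(A)-selected RNA of 6 fibroblast lines was sequenced, 3 per genotype. The deposited values are unnormalised counts of reads per Ensembl gene, 1 file per line. Per the submitters' processing notes, Trimmomatic 0.36, STAR 2.5.2b with GRCm38, and featureCounts of Subread 1.5.2 were used, and DESeq2 was named. Annotation release, strand setting, multimapping and any batch are not given in the sources used here. Symbols came from GENCODE M21 (49056 of 49315 identifiers). None of the 10 members shares exon bases with another gene, but several list genes do.

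These counts went into edgeR 4.0.16 under R 4.3.3 (filterByExpr, TMM, glmQLFit, glmQLFTest, no covariate, 2-sided, Benjamini-Hochberg over 16068 genes, threshold 0.05). Adjusted p without another tool named is this value. SE is the absolute log2 fold change over the square root of F, and 95% intervals use the t distribution. CPM are TMM-scaled and given as mean ± SD. Per-kilobase levels use the exon length in the files, which may exceed that of the transcripts present. Exact permutation tests enumerated all 20 groupings of the lines. Alternatives were other scalings, filters, DESeq2 1.42.0, a robust prior and fits without single lines.

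The genes and the 13 lists were chosen with earlier results of these data known. Genes were named by rule: all 10 cadherins, list members past the threshold or else the smallest p, checks, and the closest gene in pattern. Others were chosen after their values were seen. Promoter sequences came from a set of RefSeq windows (GRCm38.p6). The set used here held 3 of the 10 genes, which is a limit of the set and not of RefSeq. That of Cdh15 falls inside an annotated exon and is not shown.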

Additional observations from a re-analysis of the deposited data

How the results depend on the processing

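Over 14 alternative settings, 116 of 124 log2 fold changes of the tested cadherin genes kept their sign and stayed short of the threshold. Cdh4 and Cdh13 passed with DESeq2 and with no count filter (2 genes past the threshold in each, against 0), and Cdh13 passed without SG1 and WT9 (1 gene). Leaving out a single line gave between 0 and 1 genes past the threshold, the 1 being Cdh13 without WT9. The near-zero log2 fold change of Cdh11 ranged from -0.088 to 0.043 with single lines left out, above 0 only without WT9 among them, and was 0.014 without SG1 and WT9. Over all list genes, 2 passed (Twist2 and Thy1), against 26 with no count filter, 24 with DESeq2, 16 without SG1 and WT9, and between 0 (without SG2) and 11 (without SG1) with single lines left out. Calls over all genes rose as well, from 1.9% to 3.33% with no count filter, 5.97% with DESeq2 and 4.36% without SG1 and WT9. Without SG1, 579 of all genes passed, against 306 in the main fit. The difference in the share of Cdh11, 0.926 percentage points, ranged from -0.56 to 1.88 with single lines left out and was -0.013 without SG3. The causes were not tested. The count of all genes past the threshold was 306, but 3 without SG2, 24 without WT3 and 29 without WT11, so those fits could make few calls. No paired analysis was possible because the genotypes share only the line number 3. Cdh1 and Cdh5, with at most 24 counts in a line, are limited by depth.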
